A study of Bos taurus with 12 samples.

Results

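The values described here are those of 10 genes that the progesterone of the luteal phase is known to regulate in the endometrium of cattle, out of 26323 transcripts on the array. The members were fixed by name: lipoprotein lipase (LPL), DGAT2 and FABP3 of lipid handling, SERPINA14, LTF, PENK, MSTN and CRYGS among the genes for secreted and structural products, and ANPEP and MUC1 of the cell surface. They were found through the gene name or the description of the probes that are not controls, and each of the 10 was on the array as 1 transcript. After ovulation, progesterone acts on the uterine glands and on the surface epithelium. These cells then release histotroph, the mixture of proteins, sugars and lipids that feeds the conceptus before it attaches. Uterine serpin, which SERPINA14 encodes, is a classical product of ruminant uterine glands under progesterone, and fatty acids reach the lumen through lipases, transport proteins and stored triacylglycerol.

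Endometrial biopsies of intercaruncular tissue were collected on Day 15 of a synchronised cycle, and RNA of 12 cows was hybridized to 1 array each. The old females (OF, n = 4) were nulliparous and aged 13 to 14 years, and the young females (YF, n = 4) were primiparous, aged 4 to 5 years and sampled over a year after calving. All OF and YF were Holstein clones of a single donor cow, kept under the same feeding and housing, so the animals of these groups stand for 1 genotype, and age and parity cannot be told apart. For the contemporary cows (n = 4) the labels give no age, parity or genotype, and cow 1111 was left out of the tests (n = 3) because the authors had excluded it for a divergent phenotype. Every array was labelled with Cy-3 alone, and a level below is the log2 processed intensity minus the 75th percentile of its array, averaged over the probes of the transcript. A level of 0 is therefore the 75th percentile of all probes on that array, and levels are compared between animals and not between genes.

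Of the probes on an array, 71.5% to 74.9% passed the scanner software's test against background, with 0 saturated. Markers of epithelium (10 of 10) and of stroma (7 of 7) were well above background on every array tested. Among the OF, 2 animals stood apart. The summed level of smooth muscle markers (13 of the 14 listed were on the array), in units of the 75th percentile of the array, was 1080 in OF 2258 and 386 in OF 0234, against 39.9 to 65.4 in the other OF, 36.3 to 80.3 in YF and 41.2 to 59.4 in contemporary cows. OF 2258 had the lowest summed level of ciliated cell markers as well, at 0.126 (6 of 7 markers above background). The other animals of the 3 groups had 0.463 to 4.36. Its epithelium markers were also the lowest of all animals, with a centred mean log2 level of -1.92. The next lowest animal was YF 1069 at -1.131, and the other OF had -0.155 to 0.827. The part of these markers in the results below was not tested, except where a value without these animals is given. In biopsies, fewer cells of a type and less RNA per cell cannot be told apart.

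Each transcript was read by 2 probe sequences of 60 bases, those of MUC1 each under 2 probe names, and the sequences show which pairs can be taken as separate measurements. For LPL, the member with the largest difference between OF and YF, the probes shared no more than 6 bases in a row. The last 30 bases of each are printed here.
LPL probe 1: tttggtgctaattttgtacgtgtttttatc
LPL probe 2: gacatcagccagtttggaatgaattctctc
The 2 probes of SERPINA14 are shown whole, because the first carries the same stretch of 21 bases at both ends, in capitals, whereas the second holds no repeat longer than 5 bases.
SERPINA14 probe 1: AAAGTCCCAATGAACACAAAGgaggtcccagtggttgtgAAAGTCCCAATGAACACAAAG
SERPINA14 probe 2: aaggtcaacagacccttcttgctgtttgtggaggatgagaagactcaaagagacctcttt
The probes of 5 members overlapped by 20 bases or more. MUC1 and PENK are printed as examples, with AATAAA, the letters of the polyadenylation signal, in capitals in a stretch of 30 bases.
MUC1 probe 1: gaacatgaacatggctgAATAAAatgcaga
MUC1 probe 2: tgaacatggctgAATAAAatgcagacctcc
PENK probe 1: acacaatgccAATAAAtgcctacttgtgtg
PENK probe 2: tttatttttgacacaatgccAATAAAtgcc
These letters were in 6 of the 20 member probe sequences as printed and in 7.97% of the 50922 probe sequences kept on the array. On the opposite strand (TTTATT) they were in 1 member probe, of PENK, and in 3.15% of all.

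The probes of a member agreed closely whether or not they overlapped. Over the 12 arrays, Pearson's r between the 2 probe sequences of a member ranged from 0.953 for MSTN to 0.999 for LTF. Overlap was 47 bases in MUC1, 42 in LTF and CRYGS, 27 in FABP3 and 20 in PENK, and these pairs are not independent readings. Of the pairs that did not overlap, r was 0.994 for LPL, 0.991 for DGAT2 and 0.995 for SERPINA14, whose repeat-bearing probe gave a log2 difference between OF and YF of -1.09 and whose other probe gave -1.04. In all 10 members both probes gave the same sign for OF minus YF, and the gap between the probes was 0.57 in MSTN (-0.996 and -1.57) and at most 0.12 in the others. Both probes of MSTN were well above background on 10 of the 12 arrays, and those of the other members on all 12. The files give the position of each gene but not of each probe within it.

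When OF were compared with YF, LPL was higher in OF and the other 9 members had lower means in OF. MSTN, counted among the 9 and in the median below, entered this test only through YF, the group with its higher mean. None of the 10 passed an adjusted p of 0.05 in limma (adjusted p = 0.999 for each), where 0% of the 19755 transcripts tested were called. At an unadjusted p of 0.05, limma passed 1 member, LPL, beside 2.42% of all transcripts tested. LPL was also the 1 member whose groups did not overlap, against 1.53% of all transcripts. The median log2 difference of the members was -0.76, and that of all transcripts tested 0.01. All 10 members varied more between animals than the median transcript: their within-group SD had a median of 1.08, against 0.33 over all transcripts tested, and the share of transcripts with a larger SD ran from 1.44% for SERPINA14 to 25.6% for FABP3. The smallest p that the exact permutation test allows with 4 animals against 4 is 0.0286, and with 3 against 4 it is 0.0571. It was computed 30 times in all, 2-sided and without adjustment.

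**Figure D1:**
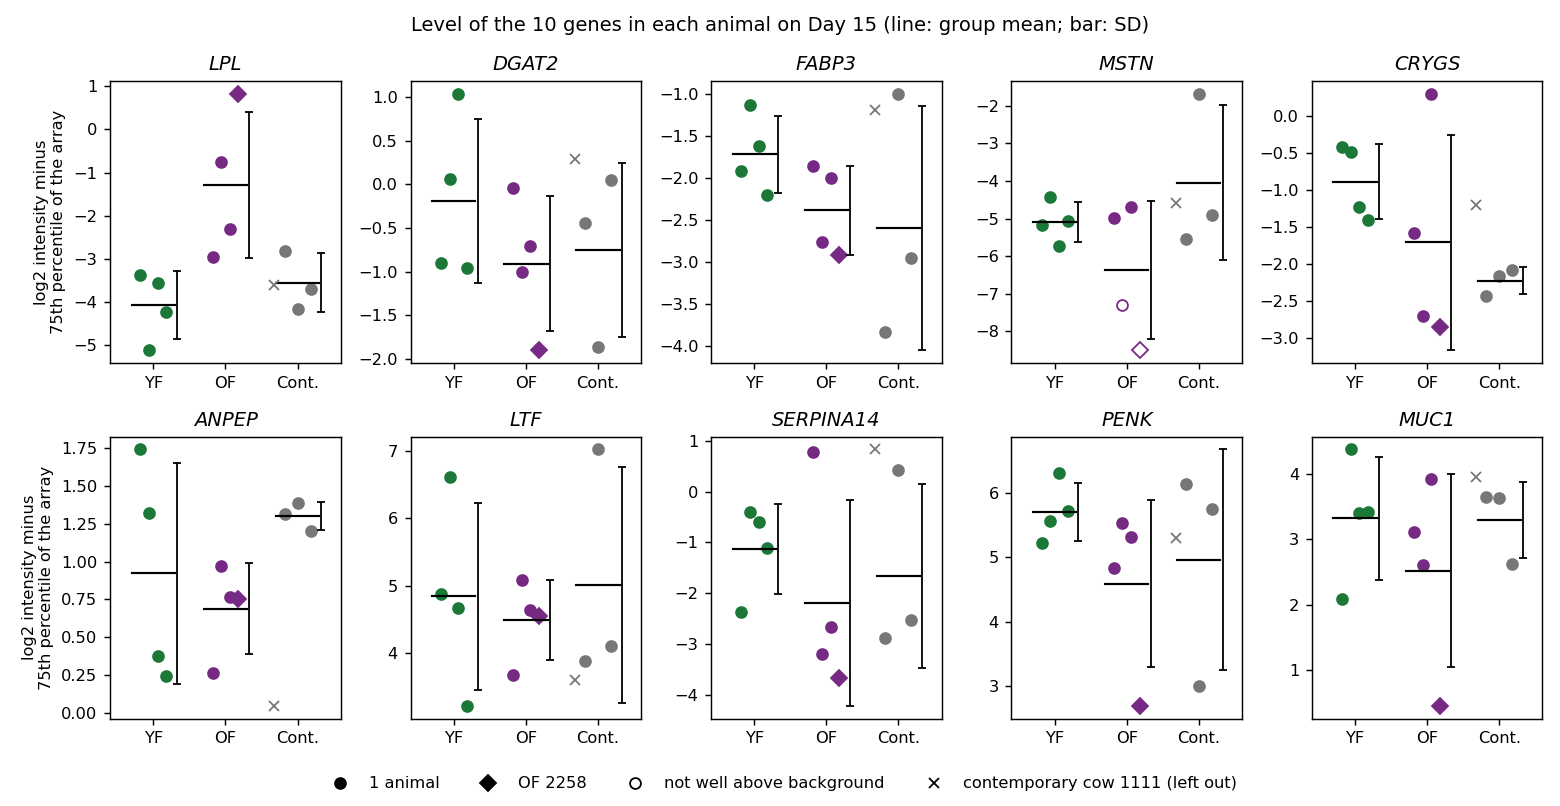
Level of each gene (log2 intensity minus the 75th percentile of the array) in every animal, by group; lines are group means and bars SD over the animals tested, diamonds mark OF 2258, open symbols an MSTN level not well above background and crosses the contemporary cow 1111. LPL is the panel in which all OF lie above all YF, and OF 2258 is the lowest OF in 7 of the 10 panels and the highest in that of LPL.

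LPL (chr8:67481089-67511227, bosTau6/UMD_3.1) encodes the enzyme that frees fatty acids from the triglycerides of circulating lipoproteins at the vessel wall. The levels of OF 0233, 0234, 0245 and 2258 were -2.95, -0.75, -2.31 and 0.83. In YF it was -3.39 in 1069, -5.12 in 1070, -3.57 in 1072 and -4.23 in 1127. Every OF thus lay above every YF, but the lowest OF was closer to the highest YF than to the next OF. The log2 difference was 2.78 (SE 0.80, 95% confidence interval 0.96 to 4.60), or 6.87-fold, with an exact permutation p = 0.0286, the smallest possible. In limma the unadjusted p was 0.00751 and the adjusted p 0.999. A larger difference in either direction was found in 0.04% of transcripts tested. OF 2258 and OF 0234, with the most smooth muscle markers, had the most LPL. Without OF 2258 the difference was 2.07, and without both it was 1.45, with an unadjusted p in limma of 0.0215. The difference was 2.03 within slide 1 (1 OF, 2 YF) and 2.85 within slide 2 (3 OF, 2 YF).

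The contemporary cows lay nearer to YF in LPL. Cow 1068 had -2.81, 1128 had -4.16 and 1129 had -3.71, and the excluded cow 1111 had -3.62. Compared with YF, they differed by 0.52 (95% confidence interval -0.59 to 1.62), less than the spread within the groups. It was 0.14 without cow 1068 and 0.17 without YF 1070. Compared with OF, the log2 difference was -2.26 (95% confidence interval -4.31 to -0.22, unadjusted p in limma 0.0346, adjusted p = 0.911). Here the groups overlapped, since cow 1068 was above OF 0233, and the exact permutation p was 0.114. The summed level of adipocyte markers was 0.159 to 0.311 in OF, 0.224 to 0.340 in YF and 0.299 to 0.588 in contemporary cows. Of the 6 markers, 3 or 4 were above background. PLIN1, CIDEA and LIPE were above it on all 12 arrays, LEP only in OF 0233, and ADIPOQ and CIDEC on none. LPL and these markers had a Pearson r of -0.30 (Spearman's rho 0.08) over 12 arrays. Without OF 2258 and 0234, r was 0.41 and rho 0.49. The part of adipocytes in the level of LPL was not tested.

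DGAT2 (chr15:55940757-55973229) catalyses the last step of triacylglycerol synthesis, the step that stores fatty acids in droplets. Its level in OF was -0.04 in 0233, -1.002 in 0234, -0.70 in 0245 and -1.90 in 2258. In YF the values were -0.91 in 1069, 0.06 in 1070, 1.04 in 1072 and -0.96 in 1127. The groups overlapped, and the YF themselves fell into a higher and a lower pair. The lower pair, 1069 and 1127, was hybridized on slide 2 and the higher pair, 1070 and 1072, on slide 1. OF minus YF was -0.72 (SE 0.53, 95% confidence interval -1.93 to 0.49, exact permutation p = 0.314). Within slide 2 (3 OF, 2 YF) the difference was -0.05, and within slide 1 (1 OF, 2 YF) it was -1.25. Contemporary cows ranged from -1.86 in 1128 to 0.05 in 1129, with cow 1111 at 0.30. They differed from YF by -0.56 (95% confidence interval -1.97 to 0.85), which became -0.004 without cow 1128, -0.15 without YF 1072 and 0.18 with slide as a block, and from OF by 0.16 (-1.15 to 1.48).

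FABP3 (chr2:122723225-122783830) encodes a cytosolic protein that binds and carries long-chain fatty acids. OF 0233 had a level of -1.85, 0234 of -2.76, 0245 of -2.005 and 2258 of -2.92. YF 1069 had -1.92, 1070 had -1.14, 1072 had -1.62 and 1127 had -2.20. The 2 lowest values of the 8 were OF and the 2 highest YF, with the other 4 animals intermixed. The log2 difference was -0.67 (SE 0.32, 95% confidence interval -1.39 to 0.06), with an unadjusted p in limma of 0.0664 and an exact permutation p = 0.143. It was -0.63 within slide 1 and -0.45 within slide 2. Contemporary cows spread more widely than either group, from -3.83 in 1068 to -1.0 in 1128. Their SD of 1.45 (n = 3) compares with 0.53 in OF and 0.46 in YF (n = 4 each), and neither of their comparisons passed any test (exact permutation p = 0.343 against YF and 0.686 against OF).

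SERPINA14 (chr21:59667405-59678093) encodes uterine serpin, also called uterine milk protein, under which name the array lists it. OF 0233 had 0.78, above every YF, while 0234 had -3.20, 0245 had -2.66 and 2258 had -3.67, below every YF. In YF the level was -2.37 in 1069, -0.41 in 1070, -0.60 in 1072 and -1.12 in 1127. The 4 OF thus lay on both sides of the YF, with a range of 4.46 on the log2 scale, or 22.0-fold, against 1.96 in YF. The log2 difference was -1.07 (SE 0.94, 95% confidence interval -3.22 to 1.08, exact permutation p = 0.371), and it was -2.06 without OF 0233. Arithmetic means of the groups, by contrast, gave a ratio of OF to YF of 0.998, because 1 animal held most of the signal in OF. Within slides the difference was -2.16 in slide 1 and -0.29 in slide 2. Contemporary cows had a similar split, with 1128 at 0.42, and 1068 and 1129 at -2.89 and -2.52. Cow 1111 had 0.83.

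LTF (chr22:53521906-53556089) encodes lactoferrin, an iron-binding protein of mucosal secretions. Its level was 3.68 in OF 0233, 5.09 in 0234, 4.65 in 0245 and 4.55 in 2258. YF 1069 had 4.87, 1070 had 6.61, 1072 had 4.67 and 1127 had 3.22, so that all OF fell inside the range of YF. OF minus YF was -0.35 (95% confidence interval -1.83 to 1.13, exact permutation p = 0.714), and it turned to 0.24 without YF 1070. The slides gave -0.99 (slide 1) and 0.39 (slide 2). Among contemporary cows, 1128 had 7.02, the highest level of the 12, while 1068 had 3.89 and 1129 had 4.11. Their mean differed from YF by 0.16 (95% confidence interval -2.05 to 2.37) and from OF by 0.51 (-1.27 to 2.30).

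PENK (chr14:25218586-25222991) encodes proenkephalin, the precursor from which the enkephalin opioid peptides are cut. In OF the level was 4.83 in 0233, 5.53 in 0234, 5.32 in 0245 and 2.70 in 2258. YF lay close together, with 5.23 in 1069, 5.57 in 1070, 6.31 in 1072 and 5.71 in 1127. OF 2258 was far below the other OF, and the remaining OF reached from just below to inside the YF range. The difference between the groups was -1.11 (SE 0.59, 95% confidence interval -2.47 to 0.24, unadjusted p in limma 0.0954, exact permutation p = 0.114). Without OF 2258 it was -0.48. It was -0.63 within slide 1 and -1.12 within slide 2. Contemporary cow 1128, with 3.00, was nearly as low as OF 2258, while 1068 and 1129 had 6.15 and 5.75.

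MSTN (chr2:6213566-6220196) encodes myostatin, a secreted member of the TGF-beta family best known for restraining muscle growth. It was close to background: in OF it was well above background in 0233 (-4.995) and 0245 (-4.70), but not in 0234 (-7.30) or 2258 (-8.50). In YF it was above background in all 4, with -5.18, -4.41, -5.73 and -5.05 in 1069, 1070, 1072 and 1127. The 2 OF with a measured level were thus inside the YF range, and the other 2 have only an upper limit. The log2 difference of -1.28 (SE 0.82, 95% confidence interval -3.15 to 0.58, exact permutation p = 0.314) rests on those 2 arrays. After normexp background correction it was -0.13. Contemporary cow 1128 had the highest level, -1.68, with 1068 at -5.55 and 1129 at -4.90. Contemporary cows differed from OF by 2.33 (95% confidence interval -0.52 to 5.18, exact permutation p = 0.286), with 2 of 4 OF measured above background. The value was 1.15 without cow 1128 and 0.84 after normexp correction. MSTN entered that comparison only through the contemporary cows, the group with its higher mean.

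CRYGS (chr1:81281008-81286776) encodes gamma-S crystallin, a structural protein known from the eye lens. OF 0245 had the highest level of all, 0.30, and the other OF had -1.57 in 0233, -2.71 in 0234 and -2.86 in 2258. YF had -0.42 in 1069, -0.49 in 1070, -1.23 in 1072 and -1.40 in 1127. Without OF 0245, which was above every YF, the other OF were all below every YF, and the difference went from -0.82 (95% confidence interval -2.33 to 0.69, exact permutation p = 0.343) to -1.49. By slide it was 1.16 in slide 1, whose only OF was 0245, and -1.47 in slide 2.

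The contemporary cows were lower than YF in CRYGS. Cow 1068 had -2.43, 1128 had -2.16 and 1129 had -2.08, and all 3 lay below all 4 YF. The log2 difference was -1.34 (SE 0.28, 95% confidence interval -1.99 to -0.69), or 2.53-fold. The exact permutation p was 0.0571, the smallest possible, and limma gave an unadjusted p of 0.00157 and an adjusted p of 0.672. CRYGS was the 1 member of 10 that did not overlap in this comparison, where 3.84% of 19993 transcripts tested did not overlap and 0% passed the adjusted p. It was also the 1 member at an unadjusted p of 0.05 in limma, which 3.02% of all transcripts reached. Cow 1111 had -1.20, within the YF range. On slide 2, which carried the 3 contemporary cows and 2 of the YF, the difference was -1.31.

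ANPEP (chr21:21620139-21637144) encodes aminopeptidase N, a membrane enzyme that removes single amino acids from the ends of peptides, enkephalins among them. Its level was 0.26 in OF 0233, 0.97 in 0234, 0.77 in 0245 and 0.75 in 2258. YF had 1.74 in 1069, 1.32 in 1070, 0.38 in 1072 and 0.24 in 1127, so that OF lay within the YF range. The difference was -0.23 (95% confidence interval -1.04 to 0.57, exact permutation p = 0.629), with -0.08 within slide 1 and -0.33 within slide 2. Contemporary cows were the most alike, with 1.31 in 1068, 1.39 in 1128 and 1.202 in 1129, and each was above every OF. Against OF the difference was 0.61 (SE 0.20, 95% confidence interval 0.14 to 1.08, 1.53-fold), with an exact permutation p = 0.0571, the smallest possible, an unadjusted p in limma of 0.0177 and an adjusted p of 0.911. ANPEP was the 1 member of 10 that did not overlap here, against 5.78% of the 19914 transcripts tested, of which 0% passed the adjusted p. LPL and ANPEP were the 2 members at an unadjusted p of 0.05 in limma, beside 4.57% of all transcripts. Cow 1111, at 0.05, was below all 4 OF, and with it the difference was 0.30.

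MUC1 (chr3:15482856-15486936) encodes a transmembrane mucin of the apical surface of epithelia. OF 0233 had 3.11, 0234 had 2.61, 0245 had 3.92 and 2258 had 0.46. YF 1069 had 2.09, 1070 had 4.38, 1072 had 3.41 and 1127 had 3.42. OF 2258 stood alone below all other animals, and the other 3 OF fell within the YF range. The difference was -0.80 (SE 0.75, 95% confidence interval -2.51 to 0.91, exact permutation p = 0.457), and it was -0.11 without OF 2258. Within slide 1 it was 0.03, and within slide 2 it was -0.70. Contemporary cows had 3.64 in 1068, 3.63 in 1128 and 2.63 in 1129, and differed from YF by -0.03 (95% confidence interval -1.23 to 1.17).

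**Figure D2:**
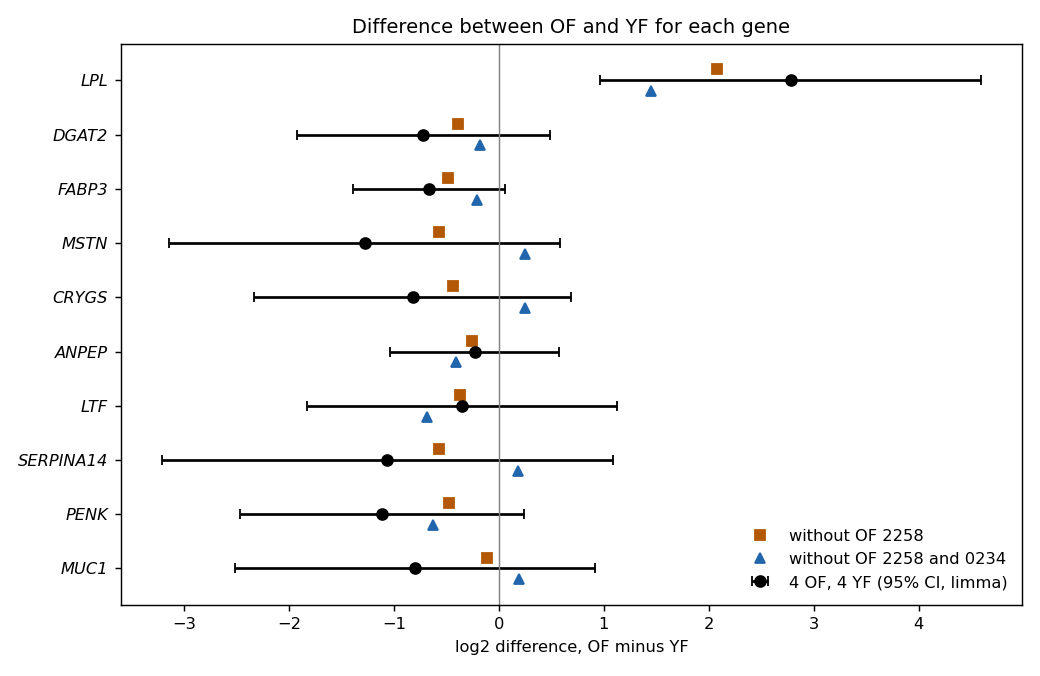
Log2 difference of OF minus YF for each gene, with the 95% confidence interval from limma (4 OF, 4 YF), and the value without OF 2258 (squares) and without OF 2258 and 0234 (triangles). The interval of LPL lies above 0, and without both OF the values of MSTN, CRYGS, SERPINA14 and MUC1 are on the other side of 0.

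OF 2258 was the extreme animal among OF for most members. This animal had the lowest level among OF for 7 members (DGAT2, FABP3, MSTN, CRYGS, SERPINA14, PENK and MUC1) and the highest for LPL. With it left out, all 9 members below 0 kept their sign. In the same 7 members the difference moved toward 0, as it must when the lowest OF is left out. It became -0.39 in DGAT2, -0.49 in FABP3, -0.57 in MSTN, -0.44 in CRYGS, -0.57 in SERPINA14, -0.48 in PENK and -0.11 in MUC1. Another single animal left out brought DGAT2 to -0.31 and FABP3 to -0.47. In MSTN, CRYGS, SERPINA14, PENK and MUC1 no other single animal moved it nearer to 0. Without OF 2258 the difference was -0.25 in ANPEP and -0.37 in LTF, where this animal was not the lowest OF. With OF 0234 left out too, 4 of the 9 turned above 0, namely MSTN (0.25), CRYGS (0.25), SERPINA14 (0.18) and MUC1 (0.19). LPL stayed above 0 in each of the 16 alternative analyses, at 1.34 to 3.33. Because every OF lay above every YF in LPL, leaving out animals could not change that sign.

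Across the 12 arrays, including cow 1111, LPL and the smooth muscle markers had a Pearson r of 0.92 (Spearman's rho 0.79). Without OF 2258 and 0234, the animals farthest from the rest on that measure, r was 0.50 and rho 0.64 over 10 arrays. MSTN (r -0.81), MUC1 (-0.76) and SERPINA14 (-0.59) ran the other way over 12 arrays, and over the 10 arrays r was -0.31 for MSTN, -0.002 for MUC1 and -0.18 for SERPINA14. MUC1 had an r of 0.90 with the markers of epithelium, and 0.73 over the 10 arrays. These values are descriptions over biopsies that share their scaling. When limma was given the level of the smooth muscle markers as a covariate, LPL differed between OF and YF by 1.34 (unadjusted p 0.00674). In that fit 535 of 19755 transcripts reached an unadjusted p of 0.05, and 0 passed the adjusted p. The markers were high in OF 2258 and OF 0234 alone, so the fit cannot fully separate their level from the group.

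**Figure D3:**
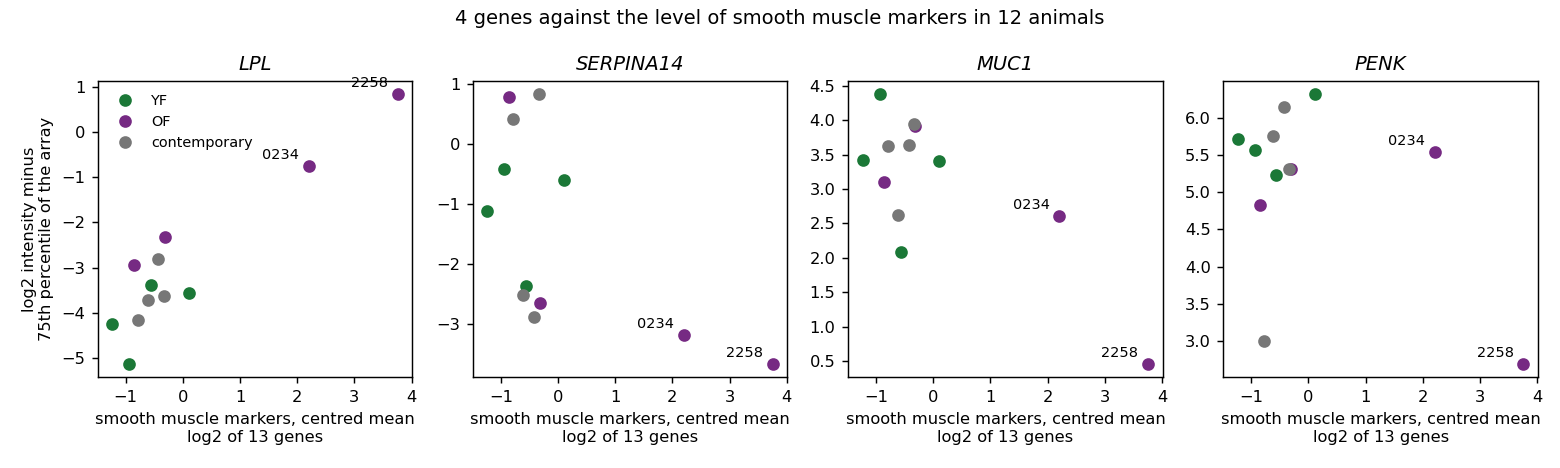
Level of 4 genes (log2 intensity minus the 75th percentile of the array) against the centred mean log2 level of 13 smooth muscle markers in 12 animals, cow 1111 included. OF 2258 and OF 0234 lie to the right of the other 10 animals, with the highest LPL and the lowest SERPINA14, while PENK is low in 2258 and not in 0234.

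The members did not move as 1 block. Among the 9 members other than LPL there were 36 pairs, with a median Pearson r of 0.30 over 12 arrays and 25 pairs above 0. Without OF 2258 the median was 0.13, and 23 pairs were above 0. The highest was SERPINA14 with FABP3 at 0.79, and it was 0.77 without OF 2258. DGAT2 and PENK had 0.76 (0.66 without OF 2258), and LTF and ANPEP 0.60 (0.60). LPL was below 0 with each of the other 9 over 12 arrays, from -0.80 with MSTN to -0.08 with ANPEP. Without OF 2258, 1 of these 9 values was above 0 (PENK, 0.151), and their median went from -0.497 to -0.295. The value with MSTN was then -0.633. MSTN was not well above background in OF 2258 and OF 0234, the animals with the most LPL. For MSTN and PENK, Pearson's r was -0.03 over 12 arrays and -0.79 without OF 2258, whereas Spearman's rho was -0.15 and -0.49.

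**Figure D4:**
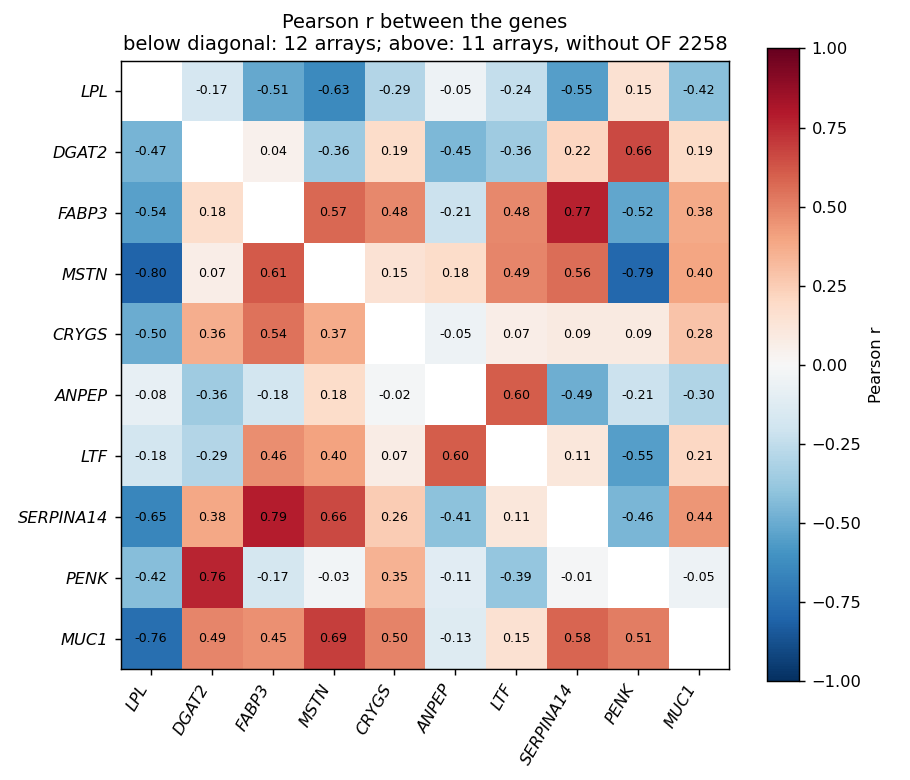
Pearson r between the levels of each pair of genes, over 12 arrays below the diagonal and over the 11 without OF 2258 above it. SERPINA14 with FABP3 and DGAT2 with PENK stay high on both sides, and most values of LPL are below 0.

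By pattern over the 12 arrays, the named genes most like each member were searched among 13344 others measured above background on all arrays. For LPL these were B3GALT2 (Pearson r 0.98), NFIX (0.96) and MYOZ3 (0.96), and for MUC1 they were TFIP11 (0.97), ALDH2 (0.97) and GPT (0.96). DGAT2 was most like PPM1M (0.96), FABP3 like GPLD1 (0.94) and CDH17 (0.93), and PENK like WBP1 (0.92). CRIM1 (0.90) was among the nearest to SERPINA14. For LTF the nearest were CHRND (0.95), GPA33 (0.95) and CFB (0.95), for ANPEP SLC19A1 (0.93), for CRYGS CBX2 (0.94) and for MSTN FZD10 (0.92). The genes named are the highest of that many values of r over 12 arrays. No member was among the 3 genes nearest to another member, which says little with so many genes searched.

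The genes around the members were read from lists in the same comparison of OF with YF, and 0 genes of these lists passed the adjusted p in limma. Of 44 lipid handling genes tested, LPL, DGAT2 and FABP3 included, 1 was higher (LPL) and 1 lower at an unadjusted p of 0.05, the latter being PLIN2, the coat protein of lipid droplets (-0.46, unadjusted p 0.0251), which was named after its value was seen. Over all transcripts tested, 2.42% passed that p in either direction. The median of the list was -0.09. Of its 41 genes other than members, 26 were below 0 (63.4%, median -0.08), beside 48.3% of all transcripts tested. Its lowest values were those of SLC27A2, a fatty acid transporter (-1.60, and -0.85 without OF 2258), and FABP7 (-0.90), and the highest beside LPL was PLIN5 (0.73). Of 36 secreted and mucosal genes tested, 26 were below 0, and the median was -0.33. This list holds 7 of the members, all below 0, and of its other 29 genes 19 were below 0 (65.5%, median -0.18), beside 48.3% of all transcripts tested. IGFBP1 (-2.48) and MEP1B (-1.43) were the lowest, and IGFBP3 (1.30) and PIP (1.15) the highest. Without OF 2258, IGFBP1 was at -1.02 and MEP1B at -0.14, and without YF 1069 PIP was at 0.54. The median of the 26 steroid response genes tested was 0.05, and at an unadjusted p of 0.05 limma passed 4 above 0 and 1 below, again beside 2.42% of all transcripts. The one below was HSD11B1, which regenerates active glucocorticoid (-2.06, unadjusted p 0.00432, no overlap between groups), followed by the glucose transporter SLC5A1 (-0.84, and -0.18 without OF 2258). The highest were the prolactin receptor PRLR (2.36, unadjusted p 0.0115) and the oxytocin receptor OXTR (2.17, unadjusted p 0.0233). No probe of PRLR was well above background on all YF arrays, and none of SLC5A1 on all OF arrays. Each thus entered the test only through the group with its higher mean. Without OF 2258 and 0234, OXTR was at 0.97 and PRLR at 1.76, and after normexp correction PRLR was at 0.75 and HSD11B1 at -0.81. Among 8 opioid genes tested, PENK and ANPEP included, 0 passed the unadjusted p, with PDYN (-0.37) the lowest after PENK and MME (0.75) and OPRD1 (0.31) the highest. Among 15 genes of the myostatin pathway tested, MSTN included, FST, whose product binds and blocks activin and myostatin, was the lowest (-1.40, unadjusted p 0.0196) and WFIKKN2 (1.28, and 0.62 without OF 2258) and SMAD3 (0.16) were the highest. No probe of WFIKKN2 was well above background on all OF arrays, although OF had its higher mean.

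The rank method of the study, FCROS, was run as an alternative on all 26323 transcripts, of which it called 4.94% in either direction. It called 3 of the 10 members: LPL as higher in OF, and FABP3 and PENK as lower. When each of the 8 animals was left out in turn, LPL was called 8 times, PENK 5 times and FABP3 4 times. The number of members called ran from 1 (without OF 2258, and without YF 1072) to 6 (without OF 0245). For these runs the share of all transcripts called was not computed, so the counts have nothing to be set against. As run here, with a fold change taken from arithmetic means, FCROS gave no call for SERPINA14. Its f-value was 0.00516 but its arithmetic fold change was 0.998. The study itself reported SERPINA14 as lower in OF, on its arrays and by RT-qPCR with more animals.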

How the data were processed

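The authors deposited 1 Feature Extraction 10.7.3.1 file per array, with the processed intensity (background-corrected by that software, not normalized between arrays), mean and background intensity of each Cy-3 spot. Here, 1319 spots marked as controls were dropped, as were 66 probes flagged as outliers on any array, leaving 61333 probes. The log2 processed intensity minus the 75th percentile of the array was averaged per probe, then per transcript. SERPINA14 was found by its description, and positions are those of the array annotation (bosTau6/UMD_3.1). A transcript entered the test if 1 of its probes exceeded background on all arrays of at least 1 of the groups compared, and was tested with limma 3.58.1 in R 4.3.3 (2-sided, Benjamini-Hochberg adjustment at 0.05, only the 2 groups compared in each fit). Limma and FCROS were tested on simulated arrays. The exact permutation test used scipy 1.17.1.

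The members and gene lists were chosen with earlier results of these data known. Named besides the members are, per list, genes passing the adjusted p, or else the 2 highest and 2 lowest, and per member up to 3 genes of the highest r. Animals are the replicates. The number of arrays limits the precision. The arrays lay on 2 slides, each with its own scan. Alternatives were normexp (offset 50), quantile normalization, no filter on dim probes, the brightest probe, slide as a block, 3 groups in 1 fit, FCROS (f within 0.025 of 0 or 1, fold change 1.5), a smooth muscle covariate, cow 1111 included and each animal left out. Leaving out OF 2258 and 0234 together was added after seeing the data. Some genes that this rule names are not reported here.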

Additional observations from a re-analysis of the deposited data

How the results depend on the processing

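In limma, 0 members passed the adjusted p of 0.05 in the comparisons of OF with YF, of contemporary cows with YF and of contemporary cows with OF, and the count was 0 in every alternative run. FCROS, run for OF against YF alone, called 3, beside 4.94% of all transcripts. By the exact permutation test, 1 member (LPL) reached 0.05 for OF against YF, with p = 0.0286, the smallest possible. With these group sizes only groups that do not overlap reach that p, so it restates the lack of overlap given above. Of all transcripts tested, 1.53% did not overlap. LPL also reached 0.05 after normexp correction, after quantile normalization and with the brightest probe. These runs use the same intensities and are not separate evidence. No paired analysis was possible because the groups share no animal numbers.

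Of 160 alternative values for OF against YF, 10 had the opposite sign, and LPL, DGAT2, FABP3 and PENK kept theirs in all 16 alternatives. For LPL, whose groups did not overlap, leaving out animals could not change the sign. The smooth muscle covariate gave 0.25 for MSTN, 0.072 for CRYGS, 0.18 for SERPINA14 and 0.30 for MUC1, and, among the listed genes, 0.53 for MEP1B, 0.26 for SLC5A1, 0.79 for PDYN and -0.29 for WFIKKN2. Leaving out OF 2258 and 0234 together (chosen after seeing the data) gave 0.25 for MSTN, 0.25 for CRYGS, 0.18 for SERPINA14, 0.19 for MUC1, 0.41 for MEP1B, 0.32 for SLC5A1, 0.66 for PDYN and -0.49 for WFIKKN2. With each animal left out in turn, ANPEP ran from -0.46 to 0.041 (above 0 without YF 1069), LTF from -0.89 to 0.24 (above 0 without YF 1070) and PDYN from -0.73 to 0.39 (above 0 without OF 2258). The cause was not tested.

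For contemporary cows against YF, 15 of 140 values were reversed. With slide as a block they were 0.18 for DGAT2, 0.08 for SERPINA14 and 0.54 for MUC1, and with cow 1111 included -0.19 for LTF, 0.083 for SERPINA14 and 0.14 for MUC1. With 1 animal left out, SERPINA14 ran from -1.58 to 0.07, MSTN from -0.13 to 1.80, LTF from -0.85 to 0.75, PENK from -1.33 to 0.24 and MUC1 from -0.44 to 0.33. Against OF, 11 of 140 were reversed. These were 0.16 for CRYGS with slide as a block, 0.14 for FABP3 with cow 1111 included and, with 1 animal left out, values within -1.01 to 0.41 for FABP3, -0.26 to 1.35 for PENK, -0.49 to 1.07 for LTF, -0.52 to 1.52 for SERPINA14, -0.24 to 0.72 for DGAT2 and -0.90 to 0.16 for CRYGS. CRYGS against YF stayed between -1.51 and -1.08, and ANPEP against OF between 0.30 and 0.71. The number of arrays limits the precision, and MSTN was limited by signal over background.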
